A study of Citrus sinensis with 36 samples.

Results

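CsSPL4 (Cs2g23550) and CsSPL13 (Cs7g10990) are squamosa promoter-binding-like (SPL) genes of sweet orange, Citrus sinensis, that the study named as highly connected transcription factors in coexpression networks. They are 2 of the 29654 genes of the deposited table, and they were taken by their gene identifiers. The other 14 genes whose Swissprot description contains the words Squamosa promoter-binding served as background, which made a family of 16 genes. The networks were built from the same libraries, so the direction in which these genes differ between variety groups is not independent evidence here. RNA-seq was run on fruits at 220 days after flowering (DAF) from 3 Valencia orange (VO) varieties, which ripen late, and 3 common sweet orange (CO) varieties. The VO varieties, written as SO in the sample labels, were Rohde Red Valencia, Delta Valencia and Cutter Valencia. The CO varieties were Xianfeng, Taoye and Jincheng. Pulp and peel of each variety were sequenced in 3 libraries, giving 36 libraries and 9 for each variety group and tissue. All trees grew in the same nursery, and each library pooled fruits of several trees. VO fruits were at the coloring stage at this date and CO fruits were mature, so variety group and maturity cannot be told apart in any comparison between the groups.

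SPL genes encode transcription factors found only in plants, which bind DNA through a zinc-binding domain at sites with the core GTAC. In Arabidopsis and rice many of them are silenced by the microRNA miR156, and they act partly through miR172 and its targets, the APETALA 2 and TOE genes, in the change from juvenile to adult growth and in flowering. SPL genes also act in fruits and seeds. The ripening gene CNR of tomato is an SPL gene, and SPL16 of rice controls grain width. The deposited description of CsSPL4 names SPL4 of Arabidopsis, a miR156 target that promotes flowering. The description of CsSPL13 names SPL16 of rice as the closest match rather than an SPL13 protein. The family member whose description names an SPL13 protein of Arabidopsis (SPL13B) is orange1.1t02597. The name CsSPL13 is therefore used here only as the study's label for Cs7g10990.

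Expression was given as FPKM, a fragment count corrected for the length of the gene and the depth of the library. Depth ran from 14.8 M to 18.8 M mapped fragments a library, with similar medians in all 4 sets of 9 libraries (16.1 M to 16.9 M). In genes matched to RefSeq, the deposited lengths had a median ratio of 1.01 to the genomic span with introns, and 71.5% lay within 20% of it. Neither CsSPL4 nor CsSPL13 was matched, so their lengths were not checked. Levels of different genes are compared per kilobase of the deposited length. CsSPL4 had 124 to 390 fragments in a library and CsSPL13 had 41 to 286. The coefficient of variation between the 3 libraries of a variety was 3.17% to 22.4% for CsSPL4, where counting alone gives 5.30% to 8.57%, and 3.93% to 23.0% for CsSPL13, where counting alone gives 6.62% to 15.0%. Differences between VO and CO were tested with limma on the 3 variety means of each group as log2(FPKM + 0.1), and a gene was called at a Benjamini-Hochberg adjusted p under 0.05 over all genes kept in the tissue. With 3 varieties against 3, an exact permutation test (two-sided) cannot go below p = 0.10, and all 4 VO to CO differences of these genes had that value. The p-values measure the spread between varieties.

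CsSPL4 was higher in VO than in CO in both tissues, by 1.51-fold in pulp and 1.33-fold in peel. In pulp it had 5.15, 4.31 and 4.66 FPKM in Cutter Valencia, 5.45, 5.29 and 4.80 FPKM in Delta Valencia and 4.84, 5.50 and 4.96 FPKM in Rohde Red Valencia. The CO pulp libraries had 2.96, 2.94 and 3.91 FPKM in Jincheng, 2.93, 3.03 and 3.26 FPKM in Taoye and 2.82, 4.41 and 3.45 FPKM in Xianfeng. The 3 VO variety means lay above the 3 CO means, and among libraries only the second Xianfeng library (4.41 FPKM) reached into the VO range, where the lowest library was the second of Cutter Valencia (4.31 FPKM). The variety means averaged 5.00 ± 0.254 FPKM in VO pulp and 3.30 ± 0.246 FPKM in CO pulp (SD, n = 3 varieties each). The difference was 0.59 ± 0.09 (SE) on the log2 scale, with a 95% interval of 0.38 to 0.81 and an adjusted p of 0.0075 from limma. In the background, 12% of the genes kept in pulp were called higher in VO, and 23.7% had all 3 VO variety means above all 3 CO means. Libraries of whole tissue do not separate a change in the share of a cell type from a change in RNA per cell.

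In peel, CsSPL4 had 7.07, 7.23 and 6.79 FPKM in Cutter Valencia, 7.08, 7.41 and 7.64 FPKM in Delta Valencia and 7.17, 7.03 and 7.85 FPKM in Rohde Red Valencia. The CO peel libraries had 5.57, 4.52 and 5.27 FPKM in Jincheng, 5.93, 5.2 and 5.59 FPKM in Taoye and 5.72, 4.91 and 6.30 FPKM in Xianfeng. All 9 VO libraries lay above all 9 CO libraries, which held for 11% of the genes kept in peel. The variety means averaged 7.25 ± 0.194 FPKM in VO peel and 5.45 ± 0.284 FPKM in CO peel (SD, n = 3 varieties each). The difference was 0.41 ± 0.07 (SE) on the log2 scale, with a 95% interval of 0.24 to 0.58 and an adjusted p of 0.0113 from limma. In peel, 13.2% of the genes kept were called higher in VO, and 25.9% had all VO variety means above all CO means. The study's library records list lower RNA integrity for VO peel than for CO peel. Without the peel library of the lowest integrity (the second of Rohde Red Valencia) the difference was 0.42 with an adjusted p of 0.0117. That fit keeps the other VO peel libraries, so the part of the integrity difference between the groups was not tested.

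CsSPL13 was likewise higher in VO, by 2.00-fold in pulp and 1.70-fold in peel, at a lower level than CsSPL4. In pulp it had 1.49, 1.45 and 1.38 FPKM in Cutter Valencia, 2.12, 2.03 and 2.40 FPKM in Delta Valencia and 2.24, 2.55 and 2.37 FPKM in Rohde Red Valencia. The CO pulp libraries had 0.679, 0.824 and 0.746 FPKM in Jincheng, 1.53, 1.06 and 1.03 FPKM in Taoye and 0.910, 0.937 and 0.850 FPKM in Xianfeng. Delta Valencia and Rohde Red Valencia stood apart from every CO library, while the first Taoye library lay above all 3 Cutter Valencia libraries. The variety means averaged 2.00 ± 0.499 FPKM in VO pulp and 0.952 ± 0.233 FPKM in CO pulp (SD, n = 3 varieties each). The difference was 1.00 ± 0.24 (SE) on the log2 scale, with a 95% interval of 0.43 to 1.57 and an adjusted p of 0.0320 from limma. Of all genes kept in pulp, 12% were called higher in VO. The call was lost without Delta Valencia (0.92, adjusted p = 0.113), Rohde Red Valencia (0.86, adjusted p = 0.114), Jincheng (0.86, adjusted p = 0.0872) or Xianfeng (0.98, adjusted p = 0.0699). With a pseudocount of 1 FPKM in place of 0.1 FPKM the difference was 0.62 (adjusted p = 0.0340).

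In peel, CsSPL13 had 3.15, 3.15 and 2.56 FPKM in Cutter Valencia, 2.81, 3.18 and 3.34 FPKM in Delta Valencia and 3.70, 3.14 and 4.61 FPKM in Rohde Red Valencia. The CO peel libraries had 2.39, 1.79 and 2.36 FPKM in Jincheng, 2.03, 1.96 and 1.64 FPKM in Taoye and 1.44, 1.62 and 1.87 FPKM in Xianfeng. All 9 VO libraries lay above all 9 CO libraries, as for 11% of the genes kept in peel. The third Rohde Red Valencia library was the highest of all. The variety means averaged 3.29 ± 0.462 FPKM in VO peel and 1.90 ± 0.270 FPKM in CO peel (SD, n = 3 varieties each). The difference was 0.76 ± 0.14 (SE) on the log2 scale, with a 95% interval of 0.42 to 1.11 and an adjusted p of 0.0159 from limma. Of all genes kept in peel, 13.2% were called higher in VO. The call was lost without Rohde Red Valencia (0.66, adjusted p = 0.0530) or Xianfeng (0.67, adjusted p = 0.0547). Without the library of the lowest RNA integrity the difference was 0.81 with an adjusted p of 0.0205, which again does not test the integrity difference between the groups.

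**Figure D1:**
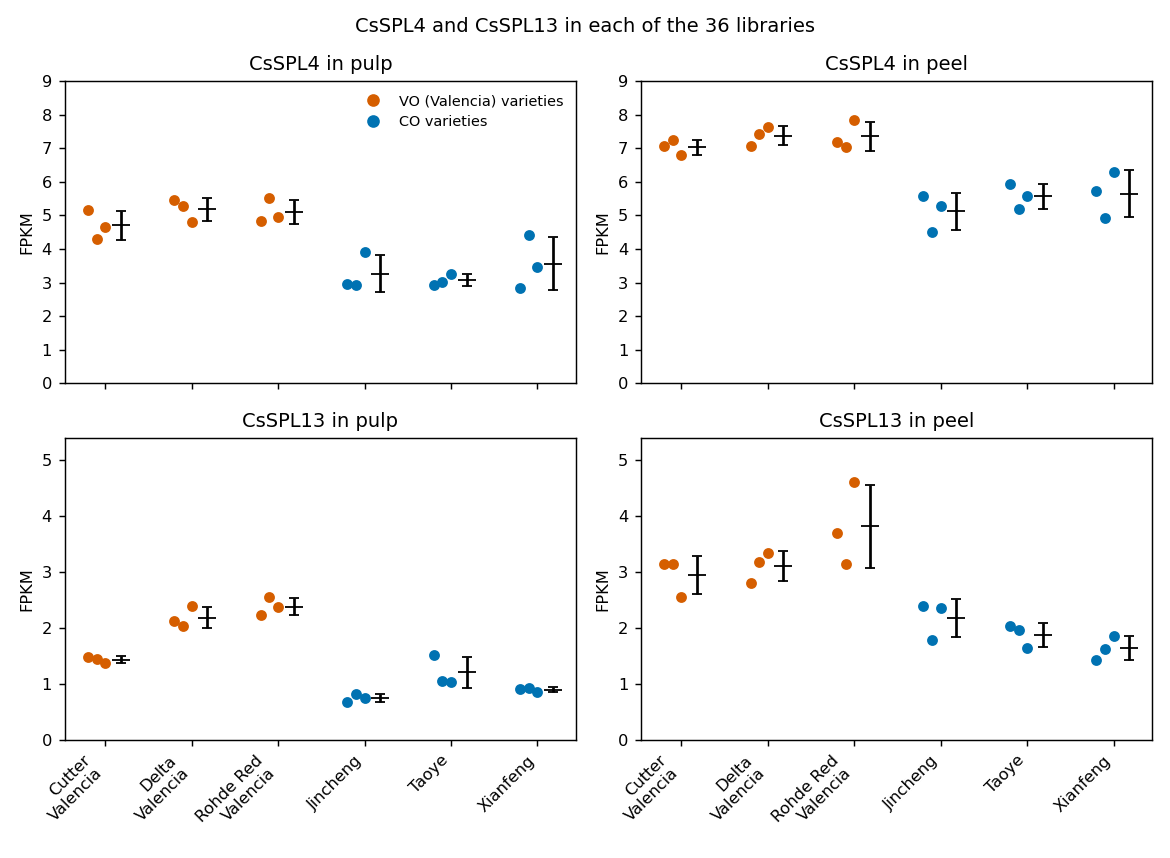
FPKM of CsSPL4 (upper panels) and CsSPL13 (lower panels) in pulp (left) and peel (right), with a point for each library, and beside the points the mean and SD of the 3 libraries of a variety. In peel all VO libraries lie above all CO libraries for both genes, as for 11% of the genes kept there. In pulp the second Xianfeng library overlaps VO for CsSPL4 and the first Taoye library overlaps Cutter Valencia for CsSPL13.

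The order of the 6 varieties divided at the border between CO and VO for CsSPL4, and less plainly for CsSPL13 in pulp. For these comparisons the 18 libraries of a tissue were fitted together in limma, and each of the 15 pairs of varieties was tested with its p adjusted over all genes. Here the spread is that among the 3 libraries of each variety. CsSPL4 differed in 9 of the 9 pairs of a VO and a CO variety in pulp (log2 difference 0.41 to 0.73) and in 9 of 9 in peel (0.32 to 0.52), and in none of the 6 pairs within a variety group in either tissue. Over all genes, 52.4% of the tests between a VO and a CO variety were called in pulp and 50.2% in peel, and within a variety group 28.1% were called in pulp and 26.9% in peel. In pulp, mean CsSPL4 increased in the order Taoye (3.07 FPKM), Jincheng (3.27), Xianfeng (3.56), Cutter Valencia (4.71), Rohde Red Valencia (5.10) and Delta Valencia (5.18). In peel the order was Jincheng (5.12 FPKM), Taoye (5.57), Xianfeng (5.64), Cutter Valencia (7.03), Rohde Red Valencia (7.35) and Delta Valencia (7.38). The only neighbours in these orders that differed were Cutter Valencia and Xianfeng, with adjusted p = 0.0201 in pulp and 0.00584 in peel from limma.

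CsSPL13 varied within each variety group in pulp. Its means there increased in the order Jincheng (0.750 FPKM), Xianfeng (0.899), Taoye (1.21), Cutter Valencia (1.44), then Delta Valencia (2.18) and last Rohde Red Valencia (2.38). Cutter Valencia and Taoye, at the border of the groups, did not differ beyond their spread (log2 difference 0.26 ± 0.14 SE, adjusted p = 0.131 from limma), and the other 8 pairs of a VO and a CO variety did. Delta Valencia and Cutter Valencia differed within VO (0.57 ± 0.14, adjusted p = 0.00686), and Taoye and Xianfeng differed within CO (0.37 ± 0.14, adjusted p = 0.0398). With these, 2 of 3 pairs within VO and 2 of 3 within CO were called in pulp. In peel the order was Xianfeng (1.64 FPKM), Taoye (1.88), Jincheng (2.18), Cutter Valencia (2.95), then Delta Valencia (3.11) and last Rohde Red Valencia (3.82). There only Cutter Valencia and Jincheng differed among neighbours (0.43 ± 0.15, adjusted p = 0.0265), and 9 of the 9 pairs of a VO and a CO variety were called. Jincheng was thus the CO variety with the highest CsSPL13 mean in peel and the lowest in pulp. In pulp it lay below Taoye (log2 difference -0.60 ± 0.14 SE, adjusted p = 0.00203 from limma). It did not differ beyond the spread from Xianfeng in pulp (adjusted p = 0.206). In peel it differed from neither Taoye (adjusted p = 0.345) nor Xianfeng (adjusted p = 0.105).

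Both genes were lower in pulp than in peel in every variety. CsSPL4 in pulp was 67.0%, 70.2% and 69.4% of its peel level in Cutter, Delta and Rohde Red Valencia, and 63.9%, 55.1% and 63.1% in Jincheng, Taoye and Xianfeng. CsSPL13 in pulp was 48.7%, 70.2% and 62.4% of its peel level in the same VO varieties, and 34.4%, 64.3% and 54.8% in the same CO varieties. In each variety the 3 pulp libraries lay below the 3 peel libraries for both genes, which held in all 6 varieties for 27.1% of the genes kept. Over the 6 varieties the pulp minus peel difference was -0.62 ± 0.06 (SE) on the log2 scale for CsSPL4 (adjusted p = 9.48e-05 from limma) and -0.82 ± 0.13 for CsSPL13 (adjusted p = 0.000892). The exact sign-flip permutation p over the 6 varieties was 0.0313 for each gene, the smallest that 64 sign patterns can give. The whole distribution leaned the same way, with 46.5% of genes called lower in pulp and a median over all genes of -0.23. After each library was scaled to the median gene, which left 32.3% of genes called lower in pulp, the differences were -0.40 for CsSPL4 (adjusted p = 0.00123) and -0.61 for CsSPL13 (adjusted p = 0.00444). Of the genes called between the tissues, 30.2% were higher in pulp before this scaling and 49.97% after it.

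The difference between VO and CO was not shown to depend on the tissue for either gene. The VO to CO difference in pulp minus that in peel was 0.18 for CsSPL4, with a 95% interval of -0.06 to 0.43 (adjusted p = 0.319 from limma), and 0.24 for CsSPL13, with a 95% interval of -0.36 to 0.83 (adjusted p = 0.595). Among all genes kept, 7.05% were called in this test. Without Jincheng the value for CsSPL13 was -0.0019 (adjusted p = 0.997).

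**Figure D2:**
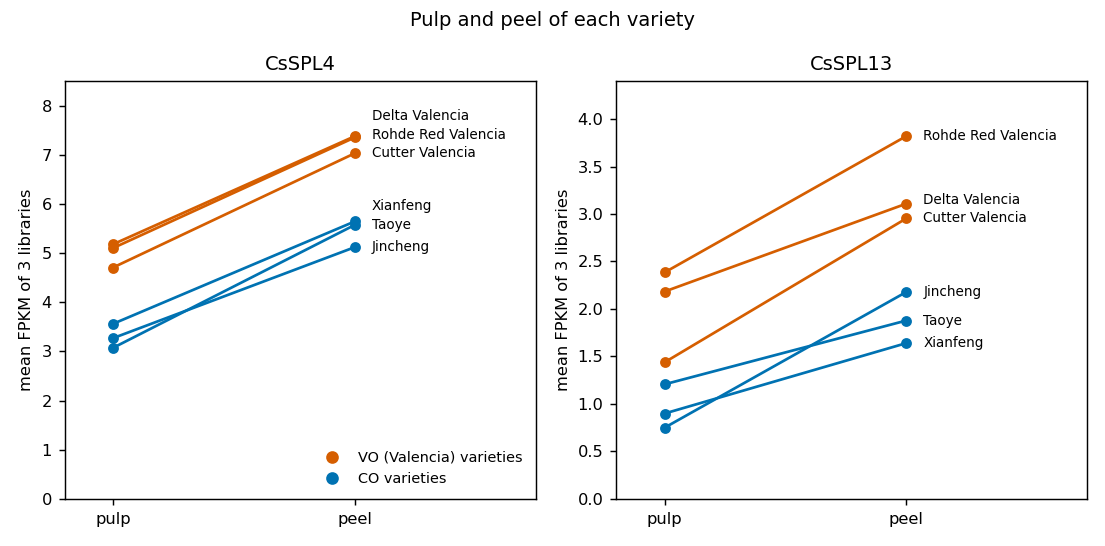
Mean FPKM of the 3 libraries in pulp and in peel for CsSPL4 (left) and CsSPL13 (right), with a line for each variety. Every line ends higher in peel, and the line of Jincheng crosses those of Taoye and Xianfeng for CsSPL13.

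The levels of the genes moved together over the 12 means of variety and tissue. Pearson's r of log2(FPKM + 0.1) was 0.921 (n = 12 means). This is a description, since the 12 points come from only 6 varieties and share the contrasts of tissue and variety group, and the FPKM of both genes come from the same libraries. Among 16326 genes that reached 1 FPKM in at least 1 mean, CsSPL13 held rank 453 in likeness to CsSPL4, and CsSPL4 held rank 286 in likeness to CsSPL13. The ratio of CsSPL13 to CsSPL4, in FPKM, was 0.306 to 0.467 in VO pulp and 0.229 to 0.393 in CO pulp. In peel it was 0.420 to 0.520 in VO and 0.291 to 0.425 in CO. These ranges overlapped in both tissues, and the exact permutation p for a difference in the ratio was 0.20 in pulp and 0.30 in peel (n = 3 varieties each), where 0.10 is the smallest possible.

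**Figure D3:**
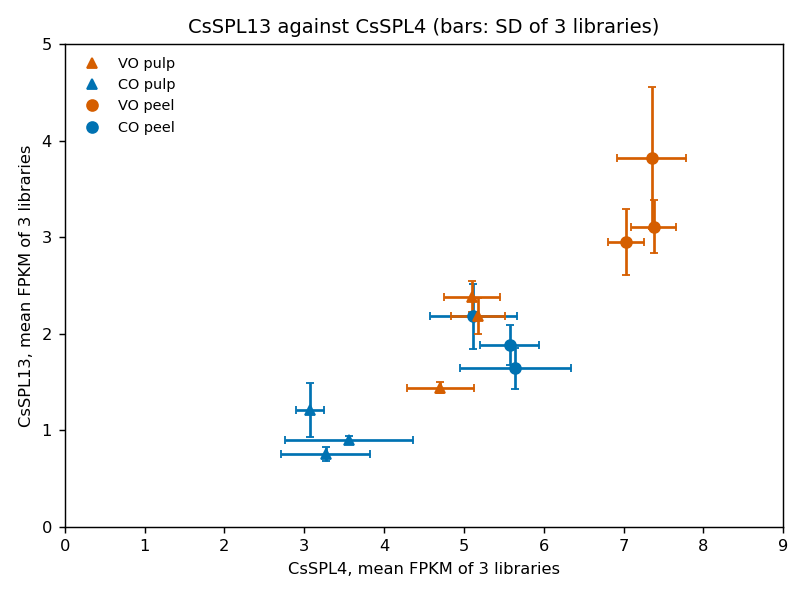
CsSPL13 against CsSPL4 in mean FPKM of 3 libraries, with SD bars, for the 12 combinations of variety and tissue (triangles pulp, circles peel). VO pulp and CO peel both lie between 4.71 and 5.64 FPKM of CsSPL4.

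The genes most like CsSPL4 over the 12 means were those described as 7-deoxyloganetin glucosyltransferase (Cs6g11170), a chloroplast ATP synthase subunit (Cs7g05570), GDSL esterase/lipase APG (Cs1g16000), nodulation receptor kinase (Cs2g14710) and IQ-DOMAIN 14 (orange1.1t00650). Their r ran from 0.985 to 0.994. Cs6g11170, the first of them, averaged 10.5 FPKM in VO pulp and 5.85 FPKM in CO pulp, and 18.04 FPKM in VO peel and 11.1 FPKM in CO peel. The genes most like CsSPL13 were those described as UDP-glucuronate 4-epimerase 2 (Cs9g14180), subtilisin-like protease SBT1.5 (Cs1g16670), VAN3-binding protein (Cs5g08670), heavy metal-associated isoprenylated plant protein 39 (Cs9g19150) and DETOXIFICATION 29 (Cs7g09200), with r from 0.978 to 0.982. No gene was among the first 5 of both lists.

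Within the family, CsSPL4 held rank 7 and CsSPL13 rank 8 of 16 by mean FPKM in both tissues. Most of the summed family FPKM came from 4 genes described as the large SPL proteins SPL1, SPL12 and SPL14 of Arabidopsis, which lack the miR156 site there. These were Cs9g01380, orange1.1t01757, orange1.1t01758 and orange1.1t04043, at 30.8 to 42.5 FPKM in pulp and 44.9 to 69.1 FPKM in peel. Their deposited lengths ran from 1592 bases (orange1.1t01757) to 6498 bases (Cs9g01380). Shares of FPKM depend on these lengths and are not shares of transcripts. CsSPL4 gave 2.38% of the summed family FPKM in pulp and 2.48% in peel, and CsSPL13 gave 0.849% and 1.01%. CsSPL4 lay above 68.7% of all genes in pulp and 72.4% in peel, and CsSPL13 above 56.6% and 59.2%. An SPL9-like gene by its description (orange1.1t02265), a promoter of the adult phase in Arabidopsis, had 0 fragments in all 36 libraries, which allows up to 0.00169 FPKM over all of them by counting error alone. The genes described as SPL8 (Cs1g03630) and as SPL7 of rice (Cs1g03640) stayed below the limit of 0.3 FPKM in every variety and were not tested.

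A gene that reached 0.3 FPKM only in the variety group where it is high entered the test through that group. Members are therefore counted here among genes that reached this limit in at least 1 variety of each group. That left 10 SPL genes in pulp, of which 4 were called higher in VO, and 11 in peel, of which 3 were called higher. CsSPL4 and CsSPL13 came from networks of these same libraries. Without them, 2 of the other 8 in pulp (25%) and 1 of the other 9 in peel (11.1%) were called higher. Among all genes kept in this way, 11.1% were called higher in VO and 7.36% lower in pulp, and 12.8% higher and 6.98% lower in peel, and the counts of genes below are to be read against these shares. CsSPL4 and CsSPL13 were among the genes called in both tissues. The other SPL gene called in both was Cs7g10830, described as SPL2 of Arabidopsis, a miR156 target there. It averaged 10.7 ± 0.568 FPKM in VO pulp and 7.92 ± 0.789 FPKM in CO pulp (SD, n = 3 varieties each; log2 difference 0.44 ± 0.09 SE, adjusted p = 0.0231 from limma). In peel it averaged 9.29 ± 0.717 FPKM in VO and 7.30 ± 0.530 FPKM in CO (0.34 ± 0.09, adjusted p = 0.0382). The call in peel was lost after scaling to the median gene (0.29, adjusted p = 0.0535), without the trend of variance with level (adjusted p = 0.0612), without replicate 1 or 3 (adjusted p = 0.0590 and 0.0733) and without any one of the 6 varieties (adjusted p 0.0535 to 0.120). The call in pulp held in 16 of 19 alternatives. It held in 7 of the 10 fits that left out a variety, a replicate number or a library (limma adjusted p up to 0.0948). Cs7g10830 was not called between pulp and peel (pulp minus peel 0.16 ± 0.07, adjusted p = 0.0589), while CsSPL4 and CsSPL13 were. The difference between these genes was not itself tested.

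The genes described as SPL6 of Arabidopsis, which acts in immunity there, were each called in 1 tissue. Cs5g12260 averaged 0.550 ± 0.0244 FPKM in VO pulp and 0.262 ± 0.0829 FPKM in CO pulp (log2 difference 0.90 ± 0.22 SE, adjusted p = 0.0361 from limma), and 1.31 ± 0.318 FPKM in VO peel and 1.11 ± 0.0642 FPKM in CO peel, where it was not called (0.20, adjusted p = 0.505). Cs7g11770 averaged 0.349 ± 0.0673 FPKM in VO peel and 0.109 ± 0.0332 FPKM in CO peel (1.1 ± 0.26, adjusted p = 0.0315). It passed the limit on low values only through VO, so it stands outside the counts above, and it was not kept in pulp. The pulp call of Cs5g12260 was lost with the correlation between libraries of a variety estimated (adjusted p = 0.0828), without replicate 3 (adjusted p = 0.107) and without any variety but Jincheng (adjusted p 0.0630 to 0.124). The peel call of Cs7g11770 was lost without any one of the 6 varieties (adjusted p 0.0545 to 0.122). Both differences moved with the pseudocount, to 0.30 for Cs5g12260 and 0.28 for Cs7g11770 at 1 FPKM, and to 1.15 and 1.63 at 0.01 FPKM.

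For orange1.1t02597, described as SPL13B, the means were 0.370 ± 0.0515 FPKM in VO pulp and 0.188 ± 0.0388 FPKM in CO pulp (SD, n = 3 varieties each). It was not called in pulp (0.69 ± 0.24 SE, adjusted p = 0.0921 from limma), where it was kept only through VO, or in peel (0.37 ± 0.28, adjusted p = 0.391). Cs2g05730, described as SBP1 of snapdragon, a protein known there for binding the promoter of SQUAMOSA, was the nearest to CsSPL13 in level in peel. It averaged 0.836 ± 0.215 FPKM in VO pulp and 0.507 ± 0.00878 FPKM in CO pulp, and 2.95 ± 0.132 FPKM in VO peel and 2.09 ± 0.789 FPKM in CO peel, with adjusted p of 0.0898 and 0.194. Cs9g05200, described as SPL7 of Arabidopsis, which there controls copper homeostasis, averaged 7.03 ± 0.449 FPKM in VO pulp and 7.72 ± 0.462 FPKM in CO pulp, and 8.15 ± 0.359 FPKM in VO peel and 8.23 ± 0.111 FPKM in CO peel, with adjusted p of 0.292 and 0.892.

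The 4 abundant genes gave no call between VO and CO. In peel, orange1.1t01757 averaged 65.6 ± 5.10 FPKM in VO and 54.98 ± 0.394 FPKM in CO (adjusted p = 0.0520 from limma), and orange1.1t01758 averaged 73.8 ± 2.04 FPKM in VO and 64.4 ± 1.04 FPKM in CO (adjusted p = 0.0572). In pulp, orange1.1t04043 averaged 28.0 ± 1.37 FPKM in VO and 33.6 ± 3.20 FPKM in CO (adjusted p = 0.0845). Reads of orange1.1t01757, orange1.1t01758 and Cs9g01380, whose descriptions name near relatives, may be divided among them in ways the counting cannot settle. No SPL gene was called lower in VO by limma in either tissue, and at an unadjusted p under 0.05 there were 0 in peel and 1 in pulp, with the same 0 calls from limma voom on the recovered fragments. The median log2 difference over the SPL genes kept through both groups was 0.26 in pulp and 0.25 in peel, set beside 0.01 and 0.04 over all genes kept in this way. Without CsSPL4 and CsSPL13 it was 0.03 over the other 8 in pulp and 0.20 over the other 9 in peel.

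**Figure D4:**
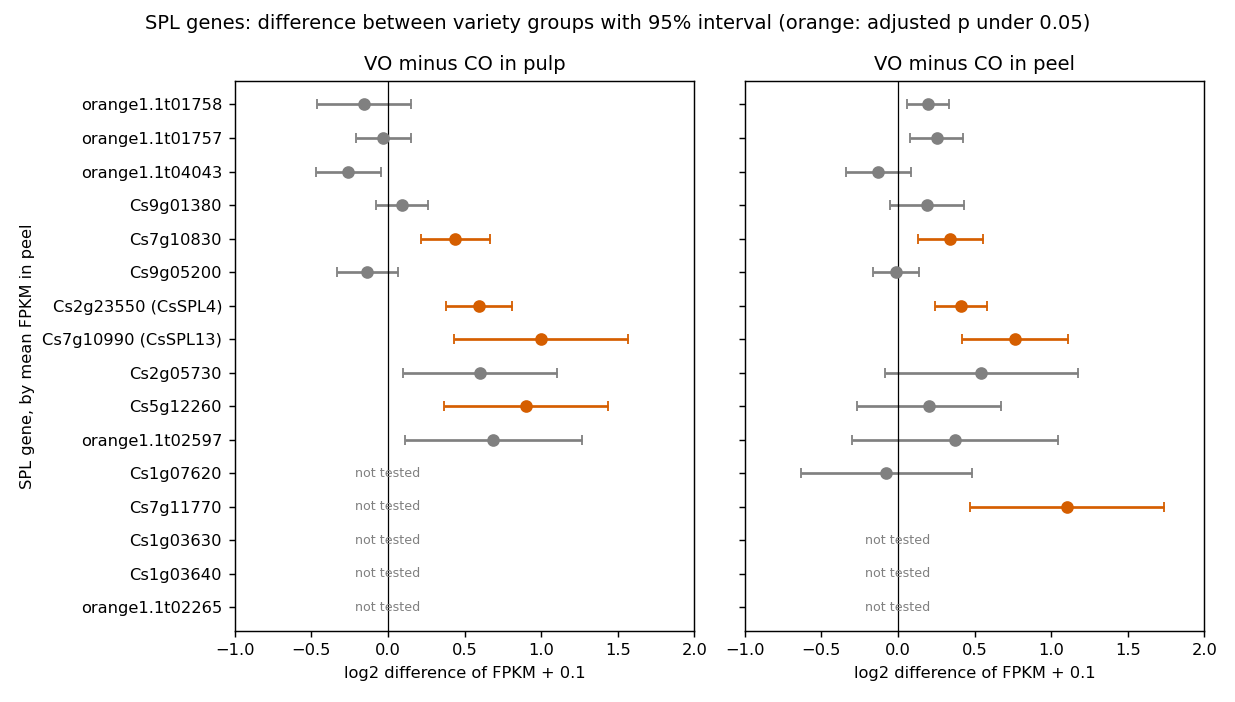
VO minus CO difference in log2(FPKM + 0.1) with its 95% interval for the SPL genes in pulp (left) and peel (right), ordered from the top by mean FPKM in peel. Genes at an adjusted p under 0.05 are orange, and genes under the limit of 0.3 FPKM in every variety are marked as not tested.

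Between tissues, 11 of the 13 SPL genes kept were called lower in pulp and 0 were called higher, set beside 46.5% and 20.1% of all genes. Of the 11, Cs1g07620 and Cs7g11770 reached 0.3 FPKM only in peel. Among genes that reached it in both tissues, 9 of 11 SPL genes were called lower in pulp, set beside 44.3% of all genes, and 21% of all genes were called higher. At an unadjusted p under 0.05, 1 SPL gene was higher in pulp, and limma voom called that number too. After scaling to the median gene, 10 of the 13 were called lower and 1 higher, set beside 32.3% of all genes in each direction. In 7 of the 13, CsSPL4 and CsSPL13 included, the pulp libraries lay below the peel libraries in all 6 varieties, set beside 27.1% of all genes kept. No SPL gene was called in the test of tissue dependence of the VO to CO difference by limma or by limma voom, and 3 had an unadjusted p under 0.05 in each.

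Genes around SPL genes in the known pathway were counted from lists of descriptions, with genes kept only through the group where they were high left out of the calls. Of 6 microRNA genes listed, 5 were kept in each tissue. The gene described as HASTY 1 (Cs3g11850), which exports microRNAs from the nucleus in Arabidopsis, fell in VO, with 7.79 FPKM in VO pulp and 20.1 FPKM in CO pulp (log2 difference -1.36, adjusted p = 0.000361 from limma) and 7.99 FPKM in VO peel and 13.6 FPKM in CO peel (-0.76, adjusted p = 0.0018). ARGONAUTE 1 (Cs5g16710), the slicer of microRNA targets, had 53.2 FPKM in VO pulp and 45.5 FPKM in CO pulp, and 44.8 FPKM in VO peel and 42.4 FPKM in CO peel, and was not called. The gene described as Serrate (Cs2g29170) was not called either. It had 11.7 FPKM in VO pulp and 13.3 FPKM in CO pulp, and 13.3 FPKM in VO peel and 14.1 FPKM in CO peel. In all, 1 of the 5 was higher and 1 lower in VO pulp, and 0 were higher and 2 lower in VO peel, where the shares of all genes were 11.1% and 7.36% in pulp and 12.8% and 6.98% in peel. Mature microRNAs were not analysed here.

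Of 6 AP2 and TOE genes listed, 4 were kept in pulp and 5 in peel, and 1 was called higher in VO in each tissue and 0 lower, set beside 11.1% of all genes higher in pulp and 12.8% in peel. An APETALA 2 gene (Cs6g04120) rose in VO pulp, with 3.82 FPKM in VO and 1.61 FPKM in CO (log2 difference 1.19, adjusted p = 0.00913 from limma). A RAP2-7 gene (Cs8g17390) rose in VO peel, with 8.97 FPKM in VO and 4.71 FPKM in CO (0.92, adjusted p = 0.00606). The most abundant, another APETALA 2 gene (orange1.1t04055), had 54.6 FPKM in VO pulp and 67.3 FPKM in CO pulp, and 55.8 FPKM in VO peel and 65.3 FPKM in CO peel, and was not called.

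Of 24 flowering genes listed, 10 were kept through both groups in pulp, with 3 called higher and 1 lower in VO, and 11 in peel, with 4 higher and 1 lower, set beside the same shares of all genes. Another 2 genes in pulp (Cs6g05515 and orange1.1t02588) and 1 in peel (orange1.1t02588) were called higher but reached 0.3 FPKM only in VO. The list also holds 9 AGL80 and AGL82 genes and 2 ULTRAPETALA 1 genes, which its search words matched although they are not flowering integrators. The gene called lower in both tissues was an AGL82 gene (log2 difference -0.58 in pulp and -0.62 in peel, limma adjusted p = 0.0144 and 0.0135). Others of these matched genes are in the counts of genes kept and were not called. The gene described as HEADING DATE 3A of rice (Cs6g05140), a florigen there, had 122.7 FPKM in VO pulp and 45.2 FPKM in CO pulp (log2 difference 1.43, adjusted p = 0.00541 from limma), and 185.4 FPKM in VO peel and 54.3 FPKM in CO peel (1.76, adjusted p = 0.0084). The neighbouring AGL8 genes Cs5g12280 and Cs5g12290, named for FRUITFULL of Arabidopsis, were each higher in VO in both tissues by 0.45 to 0.63 on the log2 scale, and reads shared between them cannot be settled. Of 9 DELLA genes listed, repressors of gibberellin responses, 4 were kept through both groups in pulp and 2 in peel, and 1 was called higher in each tissue and 0 lower. It was the GAI1 gene (Cs2g16940), with 7.92 FPKM in VO pulp and 4.16 FPKM in CO pulp, and 11.3 FPKM in VO peel and 5.16 FPKM in CO peel (log2 difference 0.93 and 1.11). Of the 113 genes of the lignin core pathway, 49 were kept through both groups in pulp, with 11 (22.4%) higher and 6 (12.2%) lower in VO, and 57 in peel, with 6 (10.5%) higher and 14 (24.6%) lower. Among all genes kept in either group, the shares called lower were 7.48% in pulp and 7.15% in peel.

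Some lists of genes taken as markers of cell types differed in level between the groups as well. These levels do not measure the share of a cell type, and their part in the results for CsSPL4 and CsSPL13 was not tested. The counts are over genes kept through both groups, where 11.1% of all genes were higher in VO and 7.36% lower in pulp, and 12.8% higher and 6.98% lower in peel. Of 12 chlorophyll a-b binding genes, 9 of 10 kept were higher in VO pulp and 8 of 11 in VO peel, and none was lower. Their summed level was 48.4 to 64.3 FPKM in VO pulp libraries and 14.6 to 20.5 FPKM in CO pulp libraries, and 107 to 221 FPKM in VO peel libraries and 29.8 to 88.0 FPKM in CO peel libraries, with none at 0 throughout a group. Of 43 cuticle and epidermis genes, 9 of 18 kept were higher (50%) and 1 lower (5.56%) in VO pulp, and 5 of 22 kept were higher and 5 lower in VO peel (22.7% each). Their sum was 142 to 178 FPKM in VO pulp and 70.0 to 105 FPKM in CO pulp, and 142 to 168 FPKM in VO peel and 193 to 283 FPKM in CO peel, with 8 to 11 genes at 0 throughout a group. Of 25 vascular genes, 0 of 9 kept were called by limma in VO pulp and 3 of 12 were higher in VO peel (25%), where none was lower. Another 2 in pulp and 4 in peel were called higher but reached 0.3 FPKM only in VO. Their sums overlapped, at 24.3 to 38.9 FPKM in VO pulp and 20.3 to 35.7 FPKM in CO pulp, and 71.3 to 83.0 FPKM in VO peel and 51.6 to 79.3 FPKM in CO peel, with 3 to 6 genes at 0 throughout a group. Of 15 seed genes, none of 8 kept was called in pulp, and 2 of 6 were lower in VO peel. Their sums overlapped as well, at 12.1 to 37.3 FPKM in VO pulp and 17.0 to 26.8 FPKM in CO pulp, and 7.31 to 14.5 FPKM in VO peel and 10.2 to 15.6 FPKM in CO peel, with 0 to 2 genes at 0 throughout a group. Between tissues, among genes kept in both, 9 of 11 chlorophyll a-b binding genes (81.8%), 11 of 23 cuticle genes (47.8%) and 10 of 11 vascular genes (90.9%) were called lower in pulp, set beside 44.3% of all genes. In the other direction 1, 4 and 0 of them were called higher in pulp, set beside 21% of all genes.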

How the data were processed

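The deposited table holds FPKM values, which the authors made from reads aligned to the C. sinensis genome. The submitters' processing notes name TopHat2, RSEM and DESeq (version 1.10.1), and the genome build is not given in the sources used here. The deposited table also gives a length per gene. FPKM times length fell on whole multiples of a step per library for 100% of values within 0.02, which gave the fragments. Groups followed the variety names in the sample titles. The labels give 3 trees per replicate and the study's methods give fewer. Genes were kept where at least 1 variety averaged 0.3 FPKM. Log2(FPKM + 0.1) was averaged per variety and tested with limma 3.58.1 (R 4.3.3), allowing the prior variance to follow the mean level, and p-values were adjusted by the Benjamini-Hochberg method over all genes kept. Pulp and peel were compared within varieties. The fits were tested on simulated data. Tables were handled with pandas 2.3.3 and plots drawn with matplotlib 3.10.9. Named genes were CsSPL4, CsSPL13, the SPL genes, the 5 genes most like each by Pearson's r, and up to 3 genes of highest mean FPKM per pathway list. The members and lists were chosen with earlier results of these data known. Alternatives changed the pseudocount, filter, scaling, trend, replicate unit and the varieties or replicates included. RefSeq sequences were not used here.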

Additional observations from a re-analysis of the deposited data

Results flagged for a closer look

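In the 9 CO pulp libraries, the highest value of CsSPL13 (the first Taoye library, 1.53 FPKM) lay apart from the next (1.06 FPKM), with a gap of 0.55 of the whole range. The same gap was examined in the other 7 sets of 9 libraries for CsSPL4 and CsSPL13 and stayed under the limit of Dixon's test. Chance passes that limit in about 1 of 20 sets of independent values. Each set here held 3 libraries from each of 3 varieties, so that rate does not apply. Without this library, an alternative chosen after seeing the data, the VO to CO difference of CsSPL13 in pulp was 1.05 with an adjusted p of 0.0207 from limma, and 1.00 with an adjusted p of 0.0320 with it.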

How the results depend on the processing

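CsSPL4 kept its VO to CO call in all 19 alternatives in each tissue (log2 difference 0.49 to 0.67 in pulp and 0.34 to 0.47 in peel), and both genes kept the call between pulp and peel in all 19. CsSPL13 kept its call in 15 of 19 in pulp (adjusted p 4.3e-05 to 0.114) and 17 of 19 in peel (2.5e-05 to 0.0547), and each loss came from leaving out a variety. Leaving out a variety or a replicate number gave 0.86 to 1.21 in pulp and 0.66 to 0.86 in peel. Without Jincheng the dependence of CsSPL13 on tissue was -0.0019 (0.24 with all varieties), and over leaving out varieties or replicates it ran from -0.0019 to 0.40. The same replicate numbers in the labels did not pair the libraries (correlations of deviations at most 0.0647). With libraries as replicates and the replicate number as a block, 7 SPL genes passed as higher and 2 as lower in VO pulp, and 8 and 1 in VO peel. That fit takes the libraries of a variety as independent and ended no call of CsSPL4 or CsSPL13. With duplicateCorrelation over varieties, 3 were called higher in VO pulp (4 without it; Cs5g12260 was lost) and 1 lower, and 7 higher in VO peel. Scaling to the median gene left 3 of the 4 called higher in VO peel. The difference of Cs7g11770 in peel was 1.63 at a pseudocount of 0.01 FPKM, 0.28 at 1 FPKM and 1.69 with limma voom. Leaving out a variety or a replicate number left 1 to 4 SPL genes called higher and 0 to 1 lower in VO pulp, and 1 to 5 higher in VO peel. Of the genes called in peel, 64.9% were higher in VO, and 53.9% after scaling to the median gene. Limma voom on fragments and the fits without the Rohde Red Valencia or Taoye library were chosen after seeing the data. Depth limits the SPL genes under 0.3 FPKM, and 3 varieties a group limit the rest.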

Other observations

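The SPL genes below the limit of 0.3 FPKM were too sparse to test. Cs1g03640, described as SPL7 of rice, had 36 fragments over the 9 VO pulp libraries and 8 over the 9 CO pulp libraries, and 11 over the 9 VO peel libraries and 9 over the 9 CO peel libraries. Cs1g03630, described as SPL8, had 32 fragments in VO pulp and 5 in CO pulp, and 17 in VO peel and 21 in CO peel.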
